A study of Homo sapiens with 6 samples.

Results

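Small nuclear and small nucleolar RNAs were examined as 44 loci of the 62828 in the table. A locus was taken when every gene name it carries begins with SNOR, SCARNA, RNU, RNVU or snoU, or is U with a number, and when its mean over the 6 libraries was at least 1 FPKM (fragments per kilobase of transcript, scaled to library size). The name alone fits 3216 loci, of which 54 had a value above 0 in any library. The 44 are 16 small nucleolar RNA (snoRNA) loci, 7 small Cajal body RNA (scaRNA) loci and 21 spliceosomal small nuclear RNA (snRNA) loci. The members were chosen by their mean FPKM, so the level itself is described and not tested. Values below are given control first, then knockdown.

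The RNA came from K562, an established chronic myelogenous leukemia line. Cells transfected with siRNA to HNRNPU at 300 nM were set against cells given control oligos, and RNA was taken from whole cells, nuclei and cytosol by TRIzol. That gives 6 groups with 1 library each: control and knockdown, in whole-cell, nuclear and cytosolic RNA. HNRNPU is a nuclear RNA- and chromatin-binding protein, and the title of the series asks how it bears on nuclear localization of long noncoding RNAs. The labels name ribosomal RNA depletion, strand-specific libraries and an Illumina HiSeq X-10, and they name different service providers for the depletion and for total RNA, so whole-cell and fraction libraries are not compared with each other here. No group has a second library, so no difference below has a replicate check, no test was run, and 2-fold is used as a rule of size only. In bulk RNA, fewer cells carrying an RNA and less RNA per cell cannot be told apart.

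Box C/D snoRNAs guide 2′-O-methylation and box H/ACA snoRNAs guide pseudouridylation, mostly of ribosomal RNA in the nucleolus. scaRNAs carry the same boxes, reside in Cajal bodies and guide the modification of snRNAs. The snRNAs U1, U2, U4, U5 and U6 form the major spliceosome and U11, U12, U4atac and U6atac the minor one. Many human snoRNAs and scaRNAs are cut from introns of host genes, whereas most spliceosomal snRNAs have their own promoters and many near-identical gene copies.

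The HNRNPU locus, merged with its antisense gene, kept 43.0% of its control FPKM in the whole-cell knockdown library, 39.0% in the nuclear and 22.1% in the cytosolic one. Depth was read from the steps of low values. A value of 1 FPKM over 1 kilobase stood for 13.7 fragments in the shallowest library, control cytosolic, and for 39.7 in the deepest, knockdown nuclear. Counting errors given below are 1 standard error of a log2 value from estimated fragments, and their 95% intervals cover counting only. They are given only where each library compared held at least 5 fragments.

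Values above 0 were found at the longer small RNA loci only. The shortest locus above 0 anywhere in the table is SNORA59A with 152 bases, and all 7692 shorter loci were listed at 0. Those include 2922 of the 3216 small RNA loci, or 90.9%. Of loci named SNORD, mostly box C/D snoRNAs, 326 of 336 were shorter, as were 329 of 361 named SNORA and 35 of 52 named SCARNA. Among the U6 loci 2 of 1360 had a value above 0, and 1 of 139 among U4 and U5. Of the 294 small RNA loci that were not shorter, 54 had a value. Since no locus of any kind below that length had a value, a listed 0 there does not measure absence, and U4, U5 and U6 snRNAs and nearly all SNORD loci are not analysed here.

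**Figure D1:**
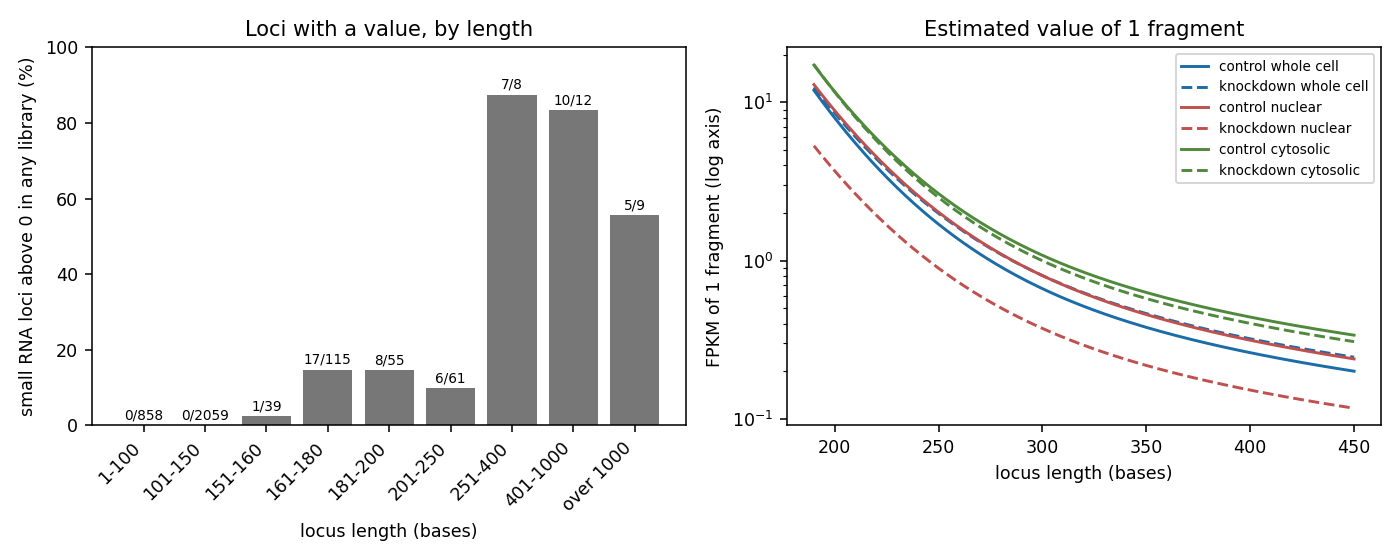
Left, percent of small RNA loci with a value above 0 in any library, by locus length in bases, with the numbers of loci above the bars. None of the 2917 loci up to 150 bases had a value, against 7 of 8 at 251 to 400 bases. Right, estimated FPKM that 1 fragment is worth, on a log axis, against locus length, 1 line per library.

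What 1 fragment is worth also varied with length. At 330 bases, the length of SCARNA10, 1 fragment was worth 0.262 to 0.758 FPKM depending on the library. At 204 bases, the length of SNORA73B, it was worth 3.21 to 10.1 FPKM. High FPKM at a locus of under 200 bases can thus rest on a few fragments. The mean of 1 FPKM was passed through 1 library alone by 12 of the 44 members, and 10 were above 0 in 1 library only. Just inside the threshold lay U3 on chromosome 18 (mean 1.46 FPKM) and RNU12 (1.19), and just outside U1 on chromosome 1 (0.479) and SNORD3C (0.436).

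The 7 scaRNA loci were above 0 in all 6 libraries and were the best measured class. Their summed FPKM was 2264 and 2372 (whole cell), 5588 and 6287 (nuclei) and 308 and 227 (cytosol). All 7 were higher in nuclear than in cytosolic RNA in both conditions, by 9.83-fold to 62.9-fold in the control. In whole-cell RNA none moved by 2-fold with the knockdown.

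SCARNA10 (chromosome 12, 6619388 to 6619717 on hg19, within NCAPD2) had the highest mean of the scaRNAs. It stood at 1102 and 1195 FPKM (whole cell), 2530 and 2948 (nuclei) and 143 and 112 (cytosol). The nuclear to cytosolic fold was 17.7 in the control and 26.4 after knockdown. Its log2 ratio of knockdown to control was 0.12 in whole cells and 0.22 in nuclei, both above their counting errors of 0.04 and 0.03, and -0.36 in the cytosol (counting error 0.15).

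SCARNA5 (chromosome 2, 234184373 to 234184648) and SCARNA6 (chromosome 2, 234197322 to 234197586) are shown because they come from the same host gene, ATG16L1, and SCARNA5 had the largest shift of the class. SCARNA13 is added as the box H/ACA scaRNA. Capitals mark ATGATGA, the usual box C letters, in the first pair and the ACA box in SCARNA13. Sequences are GENCODE release 29 transcripts, 5′ to 3′ on the RNA strand.
SCARNA5: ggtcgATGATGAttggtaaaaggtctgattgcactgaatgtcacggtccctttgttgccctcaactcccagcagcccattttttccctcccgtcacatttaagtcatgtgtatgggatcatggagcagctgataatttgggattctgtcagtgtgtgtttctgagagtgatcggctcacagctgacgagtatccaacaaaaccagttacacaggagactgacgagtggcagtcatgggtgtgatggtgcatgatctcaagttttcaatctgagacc
SCARNA6: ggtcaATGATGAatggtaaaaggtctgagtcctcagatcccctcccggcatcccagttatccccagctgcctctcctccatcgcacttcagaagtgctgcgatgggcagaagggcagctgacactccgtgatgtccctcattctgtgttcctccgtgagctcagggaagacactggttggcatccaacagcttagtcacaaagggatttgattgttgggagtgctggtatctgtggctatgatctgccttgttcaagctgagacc
SCARNA13: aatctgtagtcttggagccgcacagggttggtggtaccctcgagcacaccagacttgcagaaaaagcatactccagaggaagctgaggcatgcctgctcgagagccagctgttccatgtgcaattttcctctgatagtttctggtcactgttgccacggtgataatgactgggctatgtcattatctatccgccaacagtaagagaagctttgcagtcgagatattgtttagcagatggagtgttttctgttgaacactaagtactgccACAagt
The letters ATGATGA were searched on the RNA strand. They stand in 5 of the 7 scaRNAs (SCARNA10, SCARNA5, SCARNA6, SCARNA7 and SCARNA9), against 2.66% of the first 276 bases and 3.17% of the first 330 bases of long noncoding transcripts of that release.

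SCARNA2 (chromosome 1, 109642815 to 109643241), which unlike the others lies in no named locus of the table, had 430 and 450 FPKM (whole cell), 1363 and 1201 (nuclei) and 37.3 and 39.4 (cytosol). It was the scaRNA whose nuclear value was lower after knockdown (log2 ratio -0.18, counting error 0.03). Its nuclear to cytosolic fold was 36.5 and then 30.5, and the shift, the log2 ratio after knockdown minus that in the control, was -0.26 with a counting error of 0.20. The interval of the shift, -0.65 to 0.13, includes 0.

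SCARNA5 had 346 and 379 FPKM (whole cell), 688 and 985 (nuclei) and 62.4 and 26.9 (cytosol). Its nuclear value was higher and its cytosolic value lower after knockdown, so the fold between them went from 11.03 to 36.7. The shift was 1.73 (counting error 0.41, 95% interval 0.92 to 2.54), the only one of the 7 past 2-fold. It rests on about 39.8 cytosolic fragments in the control and 18.4 after knockdown. The whole-cell log2 ratio was 0.13, with an interval of -0.08 to 0.35 that includes 0. SCARNA6 lies in the same host gene, ATG16L1, and had 67.5 and 64.4 FPKM (whole cell), 193 and 216 (nuclei) and 5.96 and 3.72 (cytosol). Its cytosolic values stand for about 3 and 2 fragments.

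SCARNA13, a box H/ACA scaRNA within SNHG10 (chromosome 14, 95999692 to 95999966), had 208 and 163 FPKM (whole cell), 529 and 589 (nuclei) and 53.8 and 36.5 (cytosol). Its whole-cell log2 ratio of -0.35 (counting error 0.16) was the lowest of the scaRNAs, and its shift was 0.71 (counting error 0.39). SCARNA7, within KPNA4, had 62.0 and 60.9, 170 and 205, and 3.02 and 6.93 FPKM in the same order. It was the scaRNA with the lowest shift, -0.90, and its cytosolic values stand for about 4 and 10 fragments. SCARNA9, within KIAA1731, had 49.1 and 59.4, 115 and 142, and 1.83 and 2.24 FPKM. Its fold between nucleus and cytosol was 62.9 and 63.5, on about 3 and 4 cytosolic fragments.

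**Figure D2:**
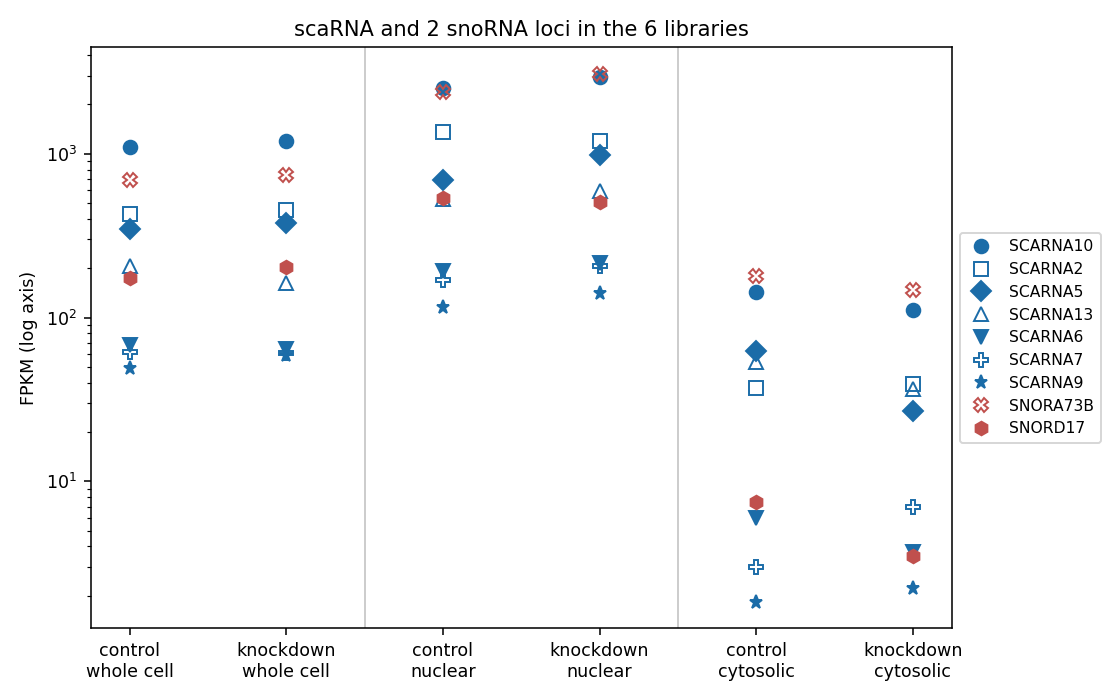
FPKM on a log axis of the 7 scaRNA loci (blue) and of SNORA73B and SNORD17 (red) in each of the 6 libraries, 1 library per column. Every locus is higher in both nuclear than in both cytosolic libraries.

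Among the 7 scaRNAs the nuclear value was higher after knockdown in 6 and the cytosolic value was lower in 4. Of the 12838 loci of any kind that passed the 1 FPKM minimum, 6928 had a higher nuclear value and 5649 a lower cytosolic value. The class median of the nuclear log2 ratio was 0.22, against 0.03 over the 12838 loci of any kind with a mean of at least 1 FPKM. In cytosolic RNA it was -0.36 against 0.03, and in whole-cell RNA 0.07 against 0.06. The median shift was 0.58 against 0.00, with a range of -0.90 to 1.73. Counting errors were large beside these medians wherever cytosolic fragments were few. The median log2 ratio of nucleus to cytosol was 4.99 in the control and 4.93 after knockdown, while over all loci it was -0.44 and -0.47.

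**Figure D3:**
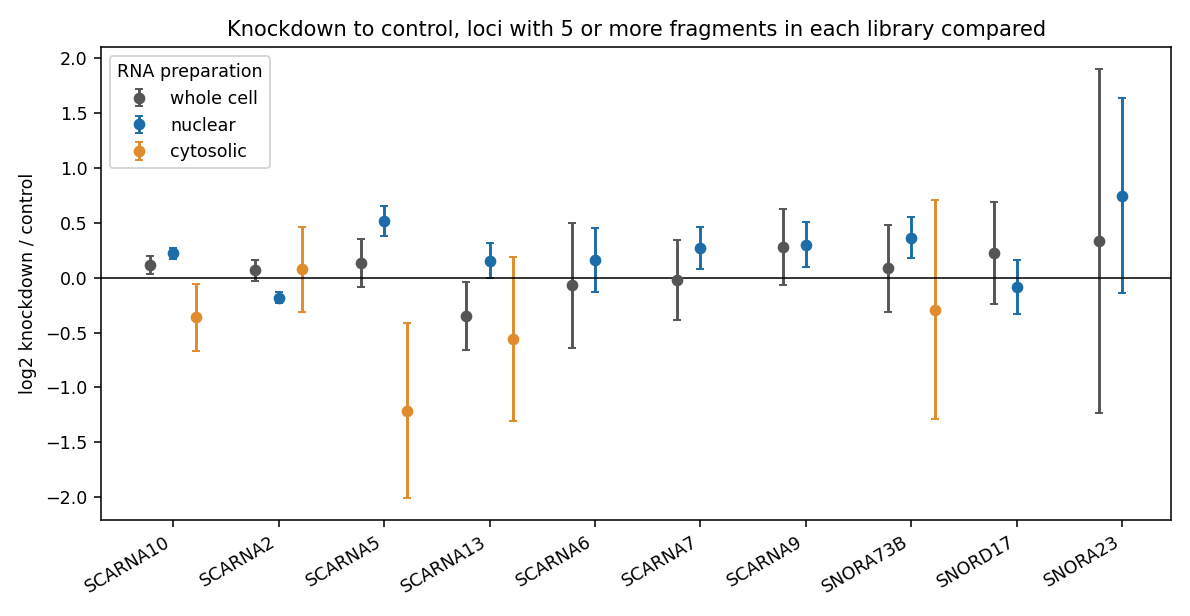
log2 ratio of knockdown to control for the 10 loci with 5 or more estimated fragments in each whole-cell and nuclear library, with 95% counting intervals. A preparation is drawn where both its libraries reach 5 fragments, and the intervals of SNORA23 are too narrow, since its fragments are overstated. SCARNA5 in cytosolic RNA, at -1.21, is the one point past 2-fold.

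Box H/ACA snoRNAs were led by SNORA73B (U17b; chromosome 1, 28835071 to 28835274), which acts in ribosomal RNA cleavage. It stood at 696 and 738 FPKM (whole cell), 2389 and 3079 (nuclei) and 180 and 148 (cytosol). The nuclear to cytosolic fold was 13.2 and 20.9, with a shift of 0.66 (counting error 0.52, 95% interval -0.36 to 1.67). Its nuclear log2 ratio was 0.37 (counting error 0.09). The locus it lies in, merged RCC1 and SNHG3, had similar whole-cell and nuclear levels: 600 and 756, 2255 and 2904, and 112 and 127 FPKM. In cytosolic RNA the merged locus was higher after knockdown, where SNORA73B was lower. Since a merged locus can count the fragments of the snoRNA inside it, the values of both may share fragments.

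SNORA23, within the importin gene IPO7 (chromosome 11, 9450320 to 9450501), had 98.9 and 125 FPKM (whole cell) and 225 and 378 (nuclei), with both cytosolic libraries listed at 0. Its nuclear values stand for at most about 12.6 and 51.99 fragments, since fragments are overstated at loci this short. For the same reason no fold is given against the cytosolic zeros. SNORA73B and SNORA23 are shown with the ACA box of their class in capitals.
SNORA73B: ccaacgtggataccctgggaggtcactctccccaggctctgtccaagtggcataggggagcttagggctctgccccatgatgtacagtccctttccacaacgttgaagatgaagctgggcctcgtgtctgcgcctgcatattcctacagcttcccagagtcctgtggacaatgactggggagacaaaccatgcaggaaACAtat
SNORA23: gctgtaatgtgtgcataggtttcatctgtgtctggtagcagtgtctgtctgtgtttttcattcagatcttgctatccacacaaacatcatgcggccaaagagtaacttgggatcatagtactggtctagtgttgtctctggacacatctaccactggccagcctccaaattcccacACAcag
ACA stood 3 bases from the 3′ end in 4 members (SNORA73B, SNORA23, SNORA59A and SCARNA13), against 2.04% of the first 204 bases of long noncoding transcripts read the same way. It did not stand there in SNORA74A, SNORA74B and SNORA81, so 3 of the 6 SNORA members with a GENCODE sequence had it.

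SNORA74A (U19; chromosome 5, 138614470 to 138614667) had 24.5 and 18.2 FPKM (whole cell), 76.0 and 131 (nuclei) and 0 and 11.5 (cytosol). The 11.5 stands for about 1 fragment. SNORA74B had 14.6 and 0, 33.9 and 17.8, and 0 and 0 FPKM, at about 5 fragments or fewer in each library, so no direction can be read. SNORA59A, the shortest locus with a value, had 0 and 78.4, 0 and 186, and 121 and 103 FPKM, and its largest value stands for at most about 6.6 fragments. SNORA76 had 1.90 and 2.29, 4.60 and 3.12, and 0 and 2.87 FPKM. SNORA73 on chromosome 6 had 11.9 and 13.02 FPKM in the whole-cell libraries and was at 0 elsewhere, at about 1 fragment each. SNORA74 on chromosome 17 (20.7 FPKM) and SNORA81 (9.50) were above 0 only in control nuclear RNA, also at about 1 fragment.

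SNORD17 was the box C/D snoRNA with the highest values and lies in a merged locus of OVOL2 and SNX5 (chromosome 20, 17943353 to 17943589). It had 174 and 203 FPKM (whole cell), 538 and 508 (nuclei) and 7.497 and 3.51 (cytosol). Its nuclear to cytosolic fold of 71.8 in the control was the highest of the members above 0 in all 6 libraries. The 145-fold value after knockdown rests on about 1 cytosolic fragment, against 2.06 in the control. Neither whole-cell (log2 ratio 0.22, counting error 0.24) nor nuclear RNA (-0.08, counting error 0.13) separated the conditions by more than counting. Capitals mark ATGATGA as in the scaRNAs, letters that 2.25% of the first 237 bases of long noncoding transcripts hold.
SNORD17: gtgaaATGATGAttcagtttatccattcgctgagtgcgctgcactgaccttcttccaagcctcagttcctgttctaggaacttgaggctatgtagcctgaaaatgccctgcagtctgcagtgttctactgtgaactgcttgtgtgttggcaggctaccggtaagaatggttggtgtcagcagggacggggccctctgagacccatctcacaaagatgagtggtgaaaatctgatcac

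U3, a box C/D snoRNA that acts in the cleavage of precursor ribosomal RNA rather than in methylation, was covered by 6 loci. SNORD3A (chromosome 17, 19091329 to 19092027) had 13.9 and 11.7 FPKM (whole cell), 50.9 and 65.5 (nuclei) and 12.6 and 7.78 (cytosol). Its fold between nucleus and cytosol was 4.05 and then 8.42, a shift of 1.05. SNORD3D had 1.89 and 1.27, 6.52 and 4.62, and 5.13 and 3.41 FPKM, with folds of 1.27 and 1.36. SNORD3B-1 had 1.68 and 0.843, 3.997 and 4.42, and 1.25 and 1.41 FPKM, and SNORD3B-2 had 1.32 and 0.935, 3.19 and 3.57, and 1.78 and 1.31. All 4 were lower in whole-cell RNA after knockdown, as were 5011 of the 12838 loci of any kind tested. Their loci span 583 to 699 bases, whereas the U3 transcript has 217, so fragments were not estimated for them. The pair below shows how alike the copies are, with the 3 differing bases in capitals.
SNORD3A: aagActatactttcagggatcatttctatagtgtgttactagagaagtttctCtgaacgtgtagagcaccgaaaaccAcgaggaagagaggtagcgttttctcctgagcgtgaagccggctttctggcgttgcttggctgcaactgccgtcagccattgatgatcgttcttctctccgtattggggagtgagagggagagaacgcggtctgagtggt
SNORD3D: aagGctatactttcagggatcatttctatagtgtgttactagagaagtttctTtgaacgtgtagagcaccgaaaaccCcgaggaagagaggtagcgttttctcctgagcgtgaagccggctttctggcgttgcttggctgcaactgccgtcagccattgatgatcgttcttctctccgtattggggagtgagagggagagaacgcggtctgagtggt
Fragments that fit several copies can be split among them, so the copies are not separate measurements. Summed over the 6 U3 loci, FPKM was 18.8 and 34.3 (whole cell), 64.7 and 78.1 (nuclei) and 20.7 and 13.9 (cytosol), a shift of 0.84. The whole-cell sum was higher after knockdown although SNORD3A, SNORD3D, SNORD3B-1 and SNORD3B-2 were lower. The loci named U3 on chromosome X (10.8 FPKM) and chromosome 18 (8.76) were above 0 in knockdown whole-cell RNA only, at about 2 fragments and 1 fragment.

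**Figure D4:**
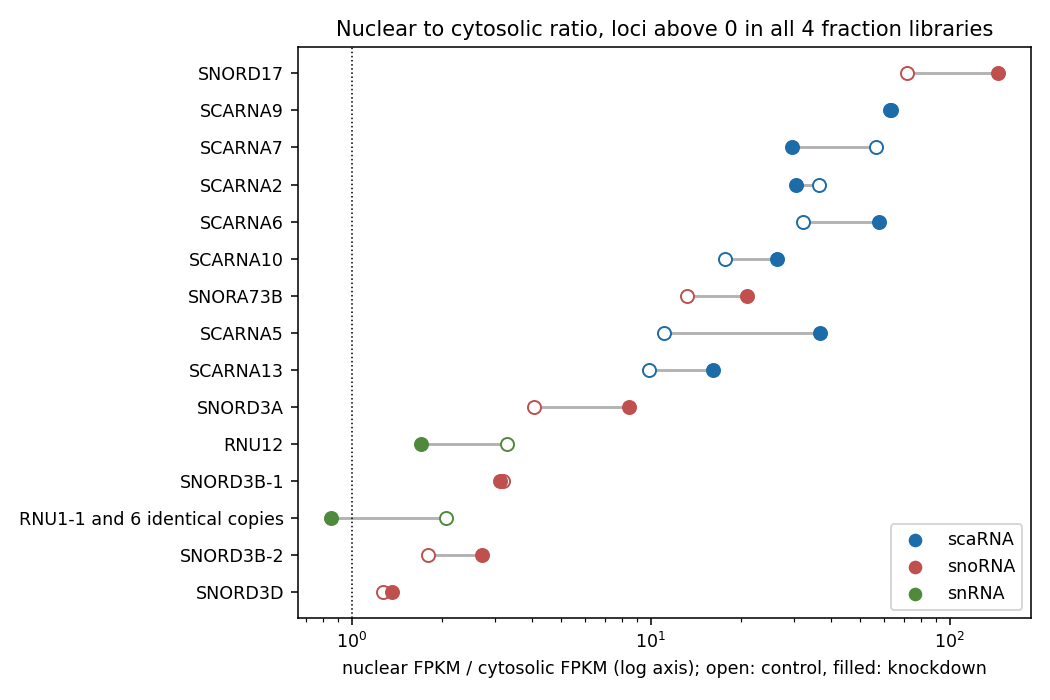
Nuclear FPKM over cytosolic FPKM on a log axis, control (open) and knockdown (filled), for the loci above 0 in all 4 fraction libraries. The 7 identical U1 copies are drawn once. SNORD17 and the scaRNAs lie at the top and the U3 and U1 copies at the bottom, and U1 is the one below 1 after knockdown, at 0.85, which is above 1 under either other scaling of the libraries.

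U1, which pairs with 5′ splice sites, was the main snRNA in the table, with 16 member loci. For 7 of them (RNU1-1, RNU1-2, RNU1-3, RNU1-4, RNU1-27P, RNU1-28P and RNVU1-18) the sequence and all 6 values were identical. Each had 39.9 and 50.8 FPKM (whole cell), 247 and 98.5 (nuclei) and 120 and 116 (cytosol). RNVU1-7 and RNVU1-9 shared another set of values, 36.3 and 5.83, 39.6 and 4.86, and 8.64 and 0 FPKM. RNU1-1 (chromosome 1, 16840617 to 16840780) and RNVU1-7 (chromosome 1, 145969270 to 145969433) are shown because a single base, T150C counted from the 5′ end of RNU1-1, separates RNVU1-7 from the first set. RNVU1-6 is added as a variant with 15 differences. Capitals mark the bases that pair with the 5′ splice site in RNU1-1, and the differences from it in the others.
RNU1-1: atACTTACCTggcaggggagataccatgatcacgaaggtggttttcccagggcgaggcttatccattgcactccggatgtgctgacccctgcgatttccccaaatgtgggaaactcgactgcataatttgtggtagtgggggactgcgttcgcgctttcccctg
RNVU1-7: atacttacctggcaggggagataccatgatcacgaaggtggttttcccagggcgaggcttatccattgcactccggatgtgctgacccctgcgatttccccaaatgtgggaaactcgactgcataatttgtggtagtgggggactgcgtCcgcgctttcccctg
RNVU1-6: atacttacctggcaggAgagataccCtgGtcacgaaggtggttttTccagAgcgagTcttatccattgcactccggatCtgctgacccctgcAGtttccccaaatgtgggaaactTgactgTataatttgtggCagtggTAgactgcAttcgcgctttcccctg

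The 9 values were shares of few fragments. In units of 1 fragment at a 164-base locus, the 9 loci together held 7 and 7 fragments (whole cell), 33 and 32 (nuclei) and 11 and 12 (cytosol). In the control cytosolic library each of RNVU1-7 and RNVU1-9 held 0.111 of a fragment. The nuclear FPKM of the 7 copies was lower after knockdown at nearly the same number of fragments. At these loci 1 fragment was worth 54.9 FPKM in the control and 21.9 in the knockdown nuclear library. A value of 1 FPKM over 1 kilobase stood for 19.9 fragments in the former and 39.7 in the latter. Near-equal fragments are thus a smaller share of the deeper library. The nuclear log2 ratio of -1.33 had a counting error of 0.36 (95% interval -2.03 to -0.63). From the estimated fragments the nuclear ratio was -0.996, just short of 2-fold. The nuclear to cytosolic fold went from 2.07 to 0.85. That last value, a log2 ratio of -0.23, turned to 0.21 with equal medians and 0.89 with equal totals, so the side of 1 depends on the scaling. The shift of -1.28 had a counting error of 0.70 (95% interval -2.65 to 0.09), which includes 0. Whole-cell (log2 ratio 0.35, counting error 0.77) and cytosolic RNA (-0.05, counting error 0.60) did not separate the conditions.

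**Figure D5:**
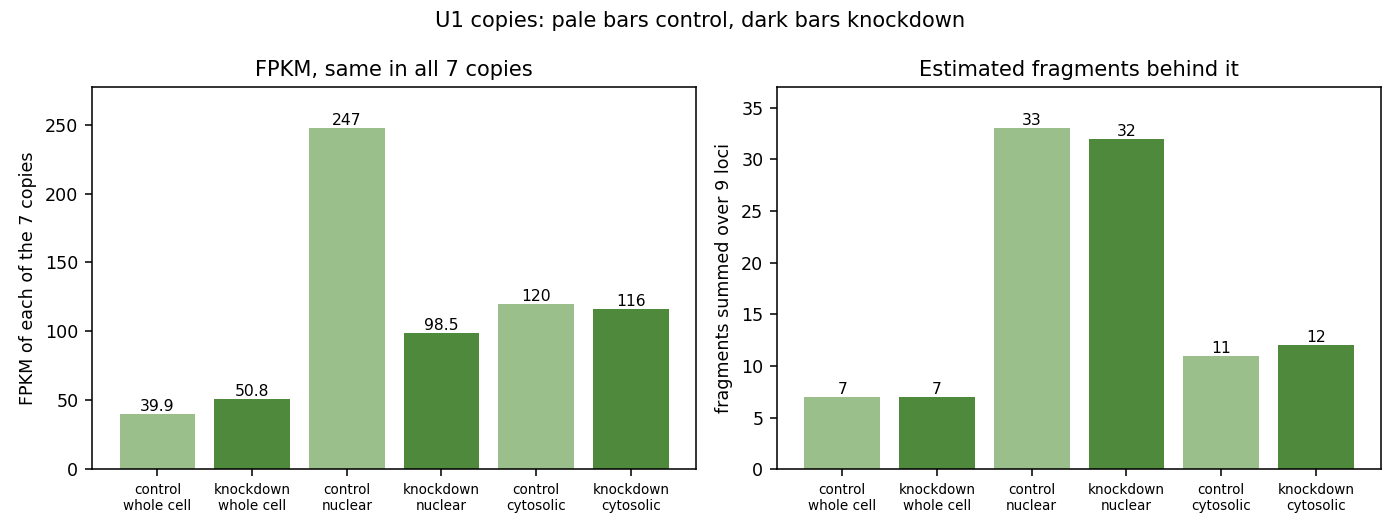
Left, FPKM of each of the 7 identical U1 copies in the 6 libraries. Right, the estimated number of fragments over the 9 loci that share them. Nuclear FPKM differs by the bars of 247 and 98.5, while the fragments behind them number 33 and 32, in libraries of unlike depth.

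The other 7 U1 loci were variants and pseudogenes that were above 0 in 1 to 3 libraries. RNVU1-6 had 87.4 FPKM in knockdown nuclear, 77.8 in control cytosolic and 67.6 in knockdown cytosolic RNA. RNU1-106P, inside the long noncoding gene PVT1, had 52.5 in knockdown whole-cell, 54.9 in control nuclear and 21.9 in knockdown nuclear RNA. RNU1-16P and RNVU1-14 (54.9 FPKM each) and RNU1-77P (63.6) were above 0 in control nuclear RNA only, and RNVU1-15 (72.1) in control cytosolic RNA only. At 164 bases a count of 0 allows up to 3 fragments, which is 65.6 FPKM in knockdown nuclear and 233 in control cytosolic RNA, so no difference between the conditions at these loci was detectable at this depth. RNVU1-20 had 15.6 FPKM in knockdown nuclear RNA only. The merged locus of clone-named genes around it had 2.75 and 3.68, 4.32 and 173, and 2.38 and 2.79 FPKM, high in that same library alone.

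U2, which pairs with the branch site, was represented by 4 loci named as pseudogenes. RNU2-63P had 9.60 and 0, 11.1 and 18.5, and 14.7 and 0 FPKM. RNU2-3P had 12.6 in control and 5.21 in knockdown nuclear RNA. RNU2-22P had 4.92 in control whole-cell and 7.06 in knockdown cytosolic RNA, and RNU2-62P 11.98 in knockdown whole-cell RNA only. Each of these values above 0 stands for about 1 fragment, except the 18.5 of RNU2-63P, at about 4. No direction can be read from them. Identity to RNU2-1 ranged from 62.7% for RNU2-22P to 93.2% for RNU2-3P. Higher values lay in a locus that the rule leaves out, RNU2-2P merged with the protein-coding gene WDR74. It had 753 and 1089, 2272 and 2826, and 1281 and 978 FPKM, which cannot be divided between these genes. The table holds 102 such merged loci with a small RNA name beside another name. RNU12, the minor spliceosome counterpart of U2, had 1.59 and 0.122, 2.25 and 1.58, and 0.682 and 0.926 FPKM. Its locus of 664 bases is longer than the 150-base transcript, so these values do not give the level of U12 itself.

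Across all 44 members, 32 were at least 2-fold higher in nuclear than in cytosolic control RNA, against 16% of all loci tested, and 3 were at least 2-fold lower, against 29.1%. After knockdown the numbers were 21 and 1, against 14.4% and 28.4%. These counts include loci with a value in 1 library, whose direction the rule fixes, and the 7 U1 copies count 1 signal 7 times. Over the 21 members above 0 in all 6 libraries, 19 were at least 2-fold higher in control nuclei and 12 after knockdown, because the 7 U1 copies and RNU12 left and SNORD3B-2 joined. With identical copies counted once, all 15 were above the cytosolic value in control nuclei, and 14 after knockdown, U1 being the other, on the authors' scaling. Among all 12838 loci tested, the nuclear value was above the cytosolic one in 4473 in the control and in 4230 after knockdown.

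By class, the median log2 ratio of nucleus to cytosol in the control was 2.87 for snoRNAs, 4.99 for scaRNAs and 1.05 for snRNAs. After knockdown it was 1.11, 4.93 and 0.00. Many of these loci are listed at 0 in a fraction. Over loci above 0 in all 6 libraries the snoRNA median was 1.81 in the control and 2.32 after knockdown, so its direction turned. Of these 6 snoRNA loci, 4 were the SNORD3 copies of U3, which are not separate measurements. The snRNA median over such loci was 1.05 and -0.23 (8 loci, 7 of them the U1 copies). The snRNA median was the lowest under each setting tried. In the control, snoRNAs lay above scaRNAs with copies summed (5.85 against 4.99), at a minimum mean of 5 FPKM (6.15 against 4.99) and with estimated fragments (5.99 against 4.85), so the order of these classes depends on the setting. Those snoRNA medians rest on 8, 7 and 7 entries, some of them listed at 0 in control cytosolic RNA. Without loci at 0 in any library it was 1.81 for snoRNAs against 4.99 for scaRNAs. The level of any such ratio depends on how the fractions were scaled to each other: setting the libraries to equal medians adds 0.41 to the control ratio of a locus well above the pseudocount, and setting them to equal totals without mitochondrial and small RNA adds 1.16. The largest change they made to a knockdown to control ratio was -0.06, in whole-cell RNA.

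In whole-cell RNA, 5 members were at least 2-fold higher after knockdown, against 1.36% of all loci, and 6 were lower, against 1.29%. Of the 21 above 0 everywhere, none was higher and 1, RNU12, was lower. In nuclear RNA 3 were higher (1.04% of all loci) and 16 lower (1.5%), and the 7 lower ones above 0 everywhere were the U1 copies. With estimated fragments in place of FPKM, used for 31 members, 5 were lower, and the U1 copies were not among them. In cytosolic RNA 4 were higher (2.62%) and 6 lower (2.63%). SCARNA7 was higher, and SCARNA5 and SNORD17 lower, among those above 0 everywhere. The shift was at least 2-fold toward the nucleus in 9 (3.28%) and toward the cytosol in 17 (3.82%). Above 0 everywhere these were SCARNA5 and SNORD3A on one side and the U1 copies on the other.

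Most snoRNA and scaRNA members lie inside other genes, and the scaRNAs and SNORD17 were more nuclear than their hosts. Of the 44, 22 lie inside a named locus (10 snoRNAs, 6 scaRNAs and 6 snRNAs). Leaving out RNU1-2 and RNU1-4, which are copies of the same signal in CROCC, 8 such members were above 0 in all 6 libraries. Of these, 7 had a higher ratio of nucleus to cytosol than the host locus in the control and 7 after knockdown. SNORA73B was the exception, at 3.73 against 4.33 in the control and 4.38 against 4.52 after knockdown. RNU1-2 and RNU1-4 had 1.05 against 0.89 for CROCC in the control, a gap below the counting error of 0.50, and -0.23 against 1.24 after knockdown. KPNA4, host of SCARNA7, had a log2 ratio of -1.58 in the control where SCARNA7 had 5.77. NCAPD2 had -0.54 where SCARNA10 had 4.14, and the merged OVOL2 and SNX5 locus -1.37 where SNORD17 had 6.15. With the knockdown ATG16L1 had a shift of -0.75, against 1.73 for SCARNA5 and 0.83 for SCARNA6 within it.

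mRNAs of the proteins that bind and process these RNAs were counted in 6 lists, and no locus of them reached 2-fold in any knockdown to control ratio or in the shift. In whole-cell RNA the list median was 0.18 for box C/D proteins (6 loci), 0.08 for box H/ACA proteins (6 loci) and 0.21 for Cajal body and snRNP assembly factors (24 loci), against 0.06 over all loci. It was 0.04 for Sm and LSm proteins (16 loci), 0.06 for snRNP-specific proteins (17 loci) and 0.04 for snRNA transcription and 3′ end processing (21 loci). The largest whole-cell ratios were those of ZNF143, an activator of snRNA promoters, with 4.82 and 7.63 FPKM (0.65), and of GEMIN2, of the SMN complex, with 4.35 and 6.503 FPKM (0.57). In nuclear RNA ZNF143 went the other way, from 8.79 to 6.004 FPKM (-0.54), with a shift of -0.84. The largest shift was that of SHQ1, an assembly chaperone of H/ACA particles, at 0.86, from 4.94 and 8.06 nuclear and 11.5 and 10.2 cytosolic FPKM. FBL, the box C/D methyltransferase, had 151 and 147 FPKM in whole-cell RNA.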

How the data were processed

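The authors deposited 1 table of FPKM values with 1 column per library. The column headers state no unit, and it was taken from the values. Tools listed in the submitters' processing notes are TopHat2 2.0.13, Cuffdiff 2.2.1, FastQC and CASAVA; their roles are not stated. The notes list hg19 beside a mouse build, and the coordinates are hg19. How libraries were scaled, how multiply mapped fragments were handled and whether counting used strand were not stated.

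Ratios are differences of log2(FPKM + 0.1) over 12838 loci whose mean reached 1 FPKM. Each group has 1 library, so sizes are given by a 2-fold rule, without p-values. The labels do not say if cultures were shared between preparations. Fragments were recovered from low FPKM steps: 89.9% to 92.3% of low values at loci of 150 to 450 bases lay within 0.05 of a whole number. This model, its limits and its use only from 5 fragments on for counting errors were chosen after seeing the data. It overstates fragments below 190 bases. At U1 loci the lowest value of other 164-base loci was used, and in control whole-cell RNA the smallest whole-number split that gives both values. The floor for a 0 is 3 fragments per library.

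Sequences came from GENCODE release 29 by symbol (37 of 44 members matched). The members and lists were chosen with earlier results of these data known. Named were every scaRNA and snRNA member, and snoRNAs by level, ratio and shift; the text also gives the remaining snoRNAs. Lists are represented by up to 3 loci with the largest whole-cell ratio or shift, and FBL was added after its values were seen. Calculations used pandas 2.3.3, numpy 2.4.6 and scipy 1.17.1 in Python 3.11.15, with plots by matplotlib 3.10.9, and were tested on simulated data. Alternatives were another pseudocount, scaling, minimum or set of members, copies summed by name family, and estimated fragments in place of FPKM, the last added after seeing the data.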

Additional observations from a re-analysis of the deposited data

Results flagged for a closer look

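SCARNA5 and SNORD3A moved in opposite directions in nuclear and cytosolic RNA after knockdown, with a shift of over 2-fold, and each group has 1 library, so the difference was not tested. For SCARNA5 the log2 ratio was 0.52 in nuclear and -1.21 in cytosolic RNA, a shift of 1.73. For SNORD3A it was 0.36 and -0.68, a shift of 1.05, and this is 0.84 when the U3 copies are summed and 0.98 with a pseudocount of 1 FPKM.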

How the results depend on the processing

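No class median past 2-fold changed sign. Single ratios were varied only for the 21 members above 0 in all 6 libraries, and none past 2-fold changed sign. Smaller ones did. The whole-cell snoRNA median went from 0.04 to -0.35 without loci at 0. The U1 ratio of nucleus to cytosol after knockdown went from -0.23 to 0.21 and 0.89 under the other scalings. The whole-cell ratio of the U3 copies went to 0.87 when summed. The control order of snoRNAs and scaRNAs turned with copies summed, a minimum of 5 FPKM and estimated fragments. No paired analysis was possible because each group has 1 library, and for the same reason no library could be left out. Of the values of these 21 single loci, 1176 stayed on their side of 2-fold and 28 crossed it. Settings that only change which members enter leave a single locus as it was. Their 102, 126, 126 and 124 values could thus not cross. The 7 U1 copies also count 1 signal 7 times. Equal totals without mitochondrial and small RNA, by construction, raised the median ratio of nucleus to cytosol to 6.13 in control and 6.05 in knockdown for scaRNAs and to 2.203 in control for snRNAs. Without loci at 0 in any library, fewer members enter: 19 were higher and 0 lower in control nuclei, 12 and 0 after knockdown, 0 and 1 in whole-cell, 0 and 7 in nuclear and 1 and 2 in cytosolic knockdown ratios, and 2 and 7 by shift, with a cytosolic snoRNA median of -0.50. With copies summed, 18 entries remained, and these counts were 16 and 1, 13 and 0, 1 and 2, and 1 and 2. Then 3 were lower in cytosolic RNA, and it was 3 and 4 by shift. Copies were joined by name family, which also takes in less alike loci such as RNU2-22P, with 62.7% identity to RNU2-1. The snRNA medians were then taken over 3 families. They were -0.28 in whole-cell RNA, the sum of the U2 pseudogenes, and -0.19 in cytosolic RNA, the U1 sum. With no minimum mean, 54 loci entered, and 5 were at least 2-fold lower in nuclear than in cytosolic control RNA. By the knockdown to control ratio in nuclear RNA, 5 were higher. A minimum of 5 FPKM left 30 members. Of these, 0 were lower after knockdown by the ratio of nucleus to cytosol, and 2 were higher in whole-cell and 2 in cytosolic RNA. Members chosen on the other libraries left 2 of 40 higher in whole-cell RNA, 10 of 36 lower in nuclear RNA and 11 of 34 lower by shift. With estimated fragments, used for 31 members, 1 was at least 2-fold lower in nuclear than in cytosolic control RNA. By the knockdown to control ratio in nuclear RNA, 5 were lower. The snRNA whole-cell median was then 0.58, and the nuclear ratio of the U1 copies was -0.996. The cause was not tested. Depth limits all loci under about 200 bases.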
